A study of Caenorhabditis elegans with 4 samples.

Results

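The regions described here are the MRG-1 peaks on chromosome II of *Caenorhabditis elegans*, taken as all peaks assigned to II in 3 deposited peak lists. There were 563 of 3283 peaks in the list of ChIP replicate 1, 562 of 3184 in that of replicate 2, and 2020 of 12447 in the list of the whole series, or 17.1%, 17.7% and 16.2% of each list. The peaks came from chromatin immunoprecipitation followed by sequencing (ChIP-seq), with an affinity-purified polyclonal rabbit antibody against MRG-1, on extracts of whole worms labelled *fem-2(b245)*III, hermaphrodite and young adult with a germ line, at 20 °C per the series design; the growth protocol speaks of gravid adults. The study had 2 ChIP samples and 2 input samples of the same strain, stage and temperature, and values of the input samples were not analysed here, so no background level stands beside the peaks. *fem-2* is needed for male development, and b245 is a temperature-sensitive allele of it; all 4 samples carried it, so no wild-type worms stand beside them. A whole-worm extract holds germ-line and somatic nuclei, and their shares in a peak cannot be told apart.

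MRG-1 has a chromodomain and is the worm relative of mammalian MRG15, which recognises histone H3 methylated at lysine 36, a mark laid down over the bodies of transcribed genes. In *C. elegans* MRG-1 is required for germ cells to develop and is known as a protein of autosomal chromatin. Autosomes of this worm have a gene-dense centre, where many genes used in the germ line lie, between arms that recombine more often and hold more repeats and more H3K9 methylation.

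The values below are peak calls, not read counts, so the sequencing depth behind a peak is unknown and the absence of a peak means only that none was called. Coordinates are in WormBase WS220, as the lists give them. Positions run from base 1 to base 15243271, the highest peak end on II in any list, and this span of 15.2 Mb need not equal the whole chromosome. Coverage is the share of bases that lie inside peaks. The series list is named for the same MRG-1 ChIP as the replicate lists, so it is not treated as an independent data set. Separate cultures are not named for the 2 ChIP replicates in the labels, and their spread may therefore be technical. There is 1 chromosome II and 1 condition, so no test was made, and differences are set beside the spread of the replicates.

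MRG-1 peaks were dense over the middle of chromosome II, sparse over most of its left arm and uneven over its right arm. Replicate 1 peaks covered 2.83 Mb or 18.6% of the span and replicate 2 peaks 1.75 Mb or 11.5%, which gives 15.02% ± 5.00 (SD, n = 2). The series list covered 15.8%, between both replicates. The number of peaks was nearly equal in the replicates, 36.9 per Mb in each. Thus for II as a whole the 1.62-fold difference in covered bases lay in mean peak width. That was 5024 bases in replicate 1 and 3116 in replicate 2. By region the replicates differed in peak number as well, as given below.

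Followed from the left end in windows of 500 kb, coverage began high, dropped, and stayed low up to 4.0 Mb. The first window, from 0 to 0.5 Mb, was covered to 24.02% in replicate 1, 10.9% in replicate 2 and 19.5% in the series list. The 7 windows from 0.5 to 4.0 Mb then held 3.02 to 12.3% in replicate 1, 1.97 to 6.66% in replicate 2 and 2.03 to 10.1% in the series list. The first window thus stood above each of the next 7 in all 3 lists. The lowest 3 windows by the mean of both replicates lay in this stretch. The window from 1.5 to 2.0 Mb had 2.59% ± 0.607 (SD, n = 2), that from 0.5 to 1.0 Mb 3.98% ± 2.85 and that from 3.5 to 4.0 Mb 4.66% ± 2.92.

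Coverage climbed between 4.0 and 5.0 Mb and remained high for 7.5 Mb. The window from 4.0 to 4.5 Mb was intermediate, with 14.3% in replicate 1 and 9.10% in replicate 2. The 15 windows from 4.5 to 12 Mb held 19.3 to 32.8% in replicate 1, with a median of 24.2%, and 10.4 to 22.5% in replicate 2, with a median of 16.2%. In both lists and in the series list none of these 15 windows overlapped in value with the 7 windows from 0.5 to 4.0 Mb. The 3 highest windows by the mean of both replicates were from 8.0 to 8.5 Mb, with 27.6% ± 7.24, from 11.5 to 12 Mb, with 27.4% ± 7.51, and from 8.5 to 9.0 Mb, with 25.6% ± 7.87. The same 3 windows ranked 1 to 3 in replicate 1 and in the series list, while in replicate 2 the window from 8.5 to 9.0 Mb ranked 4, behind that from 7.0 to 7.5 Mb with 21.01%. The dense stretch was not flat, with a low of 14.8% ± 6.26 from 10.0 to 10.5 Mb.

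Coverage dropped abruptly at 12 Mb. The window that begins there had 15.04% in replicate 1 and 7.09% in replicate 2, against 32.8% and 22.1% in the window to its left. The 4 windows from 12 to 14.0 Mb held 10.05 to 18.2% in replicate 1 and 4.03 to 7.78% in replicate 2. They were followed by 1 dense window, from 14.0 to 14.5 Mb, with 25.3% in replicate 1, 16.4% in replicate 2 and 23.1% in the series list. That window lay within the range of the dense middle in all 3 lists. The next window, from 14.5 to 15.0 Mb, fell back to 10.3% and 6.46%.

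**Figure D1:**
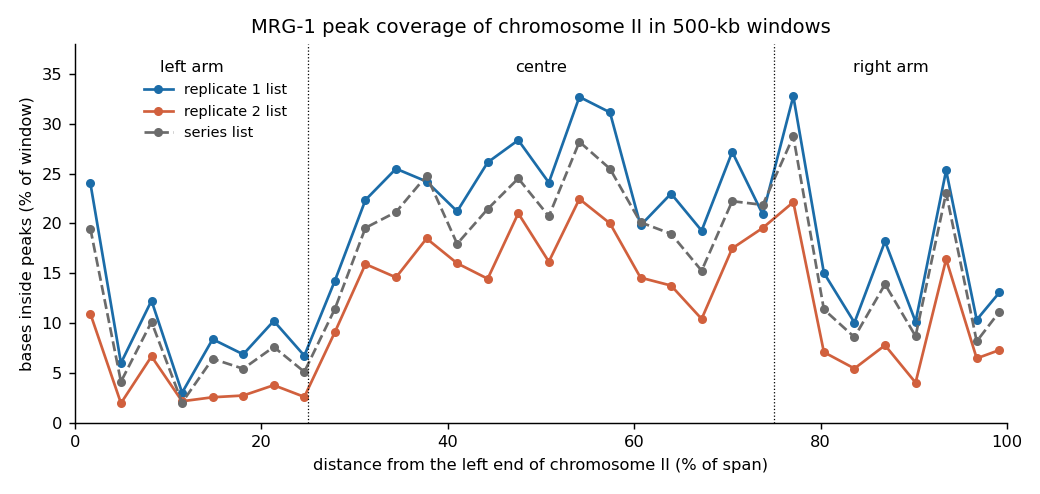
Share of bases inside MRG-1 peaks in 31 windows of 500 kb along chromosome II (the last window is shorter), for each replicate list and the series list; the x axis is the distance from the left end in percent of the span, and dotted lines mark the arms at 25% from each end. Replicate 1 lies above replicate 2 in all 31 windows, and all 3 lists are low from 0.5 to 4.0 Mb and high from 4.5 to 12 Mb.

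The replicates were closer in the shape of this profile than in its level. Replicate 1 was higher in all 31 windows of 500 kb. Across 153 windows of 100 kb the coverage of both replicates correlated with Pearson's r at 0.905 and Spearman's rho at 0.909. These windows are neighbours on 1 chromosome and share the same 2 libraries, so the values are descriptions and no p is given. Replicate 1 was the higher one in 138 of these windows, replicate 2 in 5, and 10 windows held no peak in either. The middle of the covered bases fell at nearly the same place, since 50% of them were reached at 8.22 Mb in replicate 1, 8.25 Mb in replicate 2 and 8.27 Mb in the series list.

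With the central 50% of the span taken as the centre and 25% on either side as the arms, the centre was covered to 23.2% in replicate 1 and 15.7% in replicate 2. Both arms together were covered to 13.9% and 7.28%. The centre-to-arm ratio was 1.67 in replicate 1 and 2.16 in replicate 2, and 1.78 in the series list. The arms were unlike each other: the right one was covered to 17.8% in replicate 1 and 10.3% in replicate 2, and the left one to 9.93% and 4.25%. The right-to-left ratio was 1.80 and 2.42 in the replicates and 1.95 in the series list.

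Part of the excess of the right arm came from where the boundary fell. The right arm as cut here begins at base 11432454 and so takes in the dense window up to 12 Mb. With boundaries at 4 and 12 Mb, chosen after the profile was seen, the right-to-left ratio was 1.52 in replicate 1 and 1.87 in replicate 2, and the centre-to-arm ratio was 2.06 and 2.86. The dense left end worked the other way, and without its first 500 kb the right-to-left ratio was 2.29 and 3.18. The right arm was the denser one under each of these settings.

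The other autosomes give the scale of these ratios. With arms of 25% of the span, the right-to-left ratio of chromosome II was above those of I, III, IV and V in each list. It was 1.80 against 0.722 to 1.73 in replicate 1 and 2.42 against 0.697 to 1.69 in replicate 2. In the series list it was 1.95 against 0.671 to 1.55. Chromosome III was the nearest, with 1.73, 1.69 and 1.55, while I, IV and V were below 1 in each list. The other boundaries were set for II only, so its rank under them is not known. The centre-to-arm ratio of II lay inside the range of the other autosomes in both replicates. It was 1.67 against 1.67 to 2.16 in replicate 1 and 2.16 against 2.01 to 2.74 in replicate 2. In the series list the 1.78 of II was just below the lowest of the others, 1.79. With 1 value for each chromosome none of these differences was tested.

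The near-equal totals of 563 and 562 peaks hid opposite differences within the chromosome. In the centre replicate 1 had 275 peaks and replicate 2 had 362, a ratio of 0.760. In the arms replicate 1 had 288 and replicate 2 had 200, a ratio of 1.44. By number of peaks per Mb, the centre-to-arm ratio of replicate 1 was therefore 0.955, below 1, while that of replicate 2 was 1.81, so for the peaks as called the centre was richer than the arms in both replicates only when bases were counted. When peaks less than 1000 bases apart were joined first, a setting chosen after seeing the data, both ratios by number were above 1, at 1.12 in replicate 1 and 1.64 in replicate 2. The same direction of difference, fewer centre peaks and more arm peaks in replicate 1 than in replicate 2, was found on chromosomes I, III, IV and V, with ratios of 0.687 to 0.904 in the centre and 1.23 to 1.44 in the arms.

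Width was the other side of this difference. In the centre the median peak width was 5002 bases in replicate 1 and 2512 bases in replicate 2. In the right arm it was 2178 and 2393.5 bases, and in the left arm 2464 and 1973 bases. By median, replicate 1 peaks were thus about as wide in both arms and much wider in the centre, while replicate 2 medians lay closer together. Medians do not describe the wide calls. Peaks of at least 5 kb were 25.2% of the left-arm peaks in replicate 1 and 7.35% in replicate 2. In the right arm they were 22.7% and 17.4%, and in the centre 50.2% and 21.8%. The coverage of replicate 1 over that of replicate 2 was 1.48-fold in the centre, 1.73-fold in the right arm and 2.34-fold in the left arm. The fold difference was thus largest where peaks were fewest. The SD of the coverage in percent was smallest there, at 4.01 against 5.32 in the centre and 5.33 in the right arm.

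**Figure D2:**
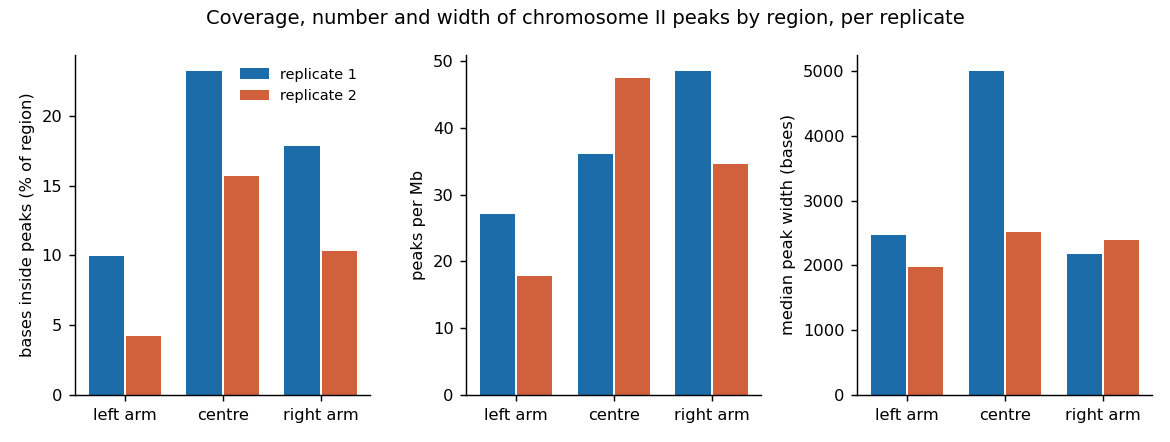
Coverage in percent, peaks per Mb and median peak width in bases for the left arm, the centre and the right arm of chromosome II, with a bar for each replicate and no pooled value. Replicate 1 is higher in coverage in all 3 regions, but lower in peak number in the centre, where its peaks have a median width of 5002 bases against 2512 in replicate 2.

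Most MRG-1 regions on chromosome II were a few kb wide in the replicate lists and much narrower in the series list. Replicate 1 widths had a median of 3461 bases and a range of 1020 to 31645, and replicate 2 widths a median of 2381.5 bases and a range of 544 to 18613. Series peaks ran from 146 to 24752 bases with a median of 465, and 52.4% of them were under 500 bases. Median widths on the other autosomes were 3202.5 to 3322.5 bases in replicate 1 and 2085 to 2199 bases in replicate 2, below those of II, whereas in the series list they were 432 to 481 bases, on both sides of II.

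Peaks of at least 5 kb numbered 206 of 563 in replicate 1, or 36.6%, where 33.3% of the peaks on all 6 chromosomes were as wide. In replicate 2 they numbered 107 of 562, or 19.04%, against 16.2% on all 6 chromosomes. On II they held 69.4% of the covered bases of replicate 1 and 42.7% of those of replicate 2. In replicate 1 the centre had 138 of them and the arms 68; in replicate 2 the centre had 79 and the arms 28. Peaks of at least 10 kb numbered 70 in replicate 1 and 7 in replicate 2.

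The widest region of replicate 1, 31645 bases from 7852079 to 7883723, was met by 4 replicate 2 peaks and 5 series peaks, which filled 82.6% and 93.3% of it. The next, 25836 bases from 6583789 to 6609624, met 7 replicate 2 peaks that filled 66.5% of it, the largest number under any replicate 1 peak on II. The next widest, 23618 bases from 14345420 to 14369037, lay in the dense window of the right arm and met 4 replicate 2 peaks, which filled 78.5% of it. The peak caller's scores of these 3 peaks were 99.1, 126 and 242, at the 16.2, 20.2 and 31.1 percentiles of the replicate 1 scores on II, so the widest calls were not the highest-scoring ones. In replicate 2 the widest were 18613 bases from 4941606 to 4960218, 15596 bases from 8927050 to 8942645 and 15447 bases from 4695973 to 4711419. Each of these 3 lay wholly inside a single replicate 1 peak and in the centre, and their scores were 177, 616 and 3100.

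In replicate 1 median scores were higher for wider peaks up to the group of at least 5 kb, and lower for the widest ones. There the median score was 99.7 for peaks of 1 to 2 kb, 823 for peaks of 2 to 5 kb and 3100 for peaks of at least 5 kb. It was 2578 for the 70 peaks of at least 10 kb and 299.7 for the 7 peaks of at least 20 kb. In replicate 2 the median score was 63.2 under 1 kb, 119 from 1 to 2 kb, 595 from 2 to 5 kb and 1957 at 5 kb or more, with 2966 for the 7 peaks of at least 10 kb. The score 3100 was given to 131 peaks of replicate 1 on II, or 23.3%, and to 21 of replicate 2, or 3.74%, so many strong calls of replicate 1 could not be ranked against each other. Scores above the tie reached 3214 in replicate 1 and 3233 in replicate 2. The median score of replicate 1 was 1691 in the centre, 283 in the right arm and 425 in the left arm. In replicate 2 the regions were closer, with 389, 337 and 331.

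Gaps between neighbouring peaks covered a wide range. The gap to the next peak had a median of 8508.5 bases in replicate 1 and 7109 bases in replicate 2. Gaps under 1 kb made up 21.2% and 25.3% of all gaps, and 6.58% and 7.84% of the gaps were under 100 bases, so some neighbouring calls nearly touched. Gaps of 1 to 5 kb made up 19.2% and 19.8%, those of 5 to 20 kb 27.6% and 21.6%, and those of 20 to 50 kb 19.2% and 19.96%. At the other end, gaps of at least 50 kb were 12.8% and 13.4% of the gaps but held 55.01% and 59.9% of the bases between peaks.

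The spacing differed between regions in a way that depended on the list. In replicate 2 the median gap was 5298 bases in the centre, 10881 in the right arm and 24138 in the left arm. In replicate 1 it was 10592.5 bases in the centre, 5162 in the right arm and 7535 in the left arm. The centre thus had the shortest median gap in replicate 2 and the longest in replicate 1. The median of the right arm was below that of the left arm in both. Long gaps of replicate 1 were placed differently from its medians. Of its 25 gaps of at least 100 kb, 12 lay in the left arm, 6 in the centre and 7 in the right arm. Of the gaps of at least 200 kb, 3 of 3 in replicate 1 and 5 of 7 in replicate 2 lay in the left arm.

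**Figure D3:**
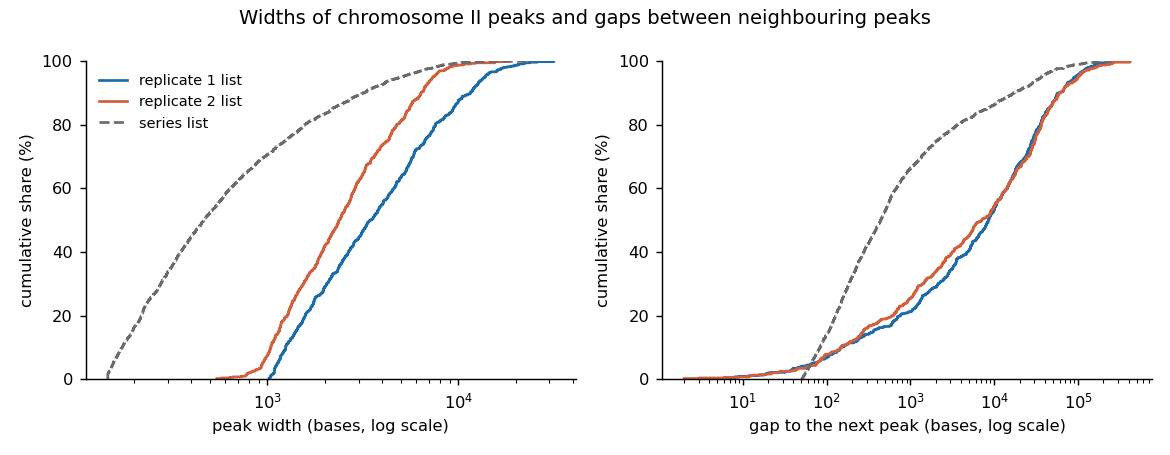
Cumulative shares of peak widths and of gaps between neighbouring peaks on chromosome II, in bases on log axes, for the 3 lists. The gap curves of the replicates nearly coincide while their width curves stand apart, and the series list is narrower (median 465 bases) and more closely spaced (median gap 443 bases).

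In the series list the median gap was 443 bases, and 66.1% of its gaps were under 1 kb. Its 2020 peaks on II fell into 363 chains when gaps under 5 kb were bridged, with a median of 4 peaks and 7.02 kb a chain. Of the peaks, 984 lay in the 64 chains of at least 10 peaks. Chains of at least 20 kb numbered 43, with 21 in the centre, 14 in the right arm and 8 in the left arm. These are counts, and the centre is as long as both arms together.

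The longest chain ran over 59.2 kb from 5346430 to 5405601, in the centre, with 22 series peaks, and was covered to 81.9% in replicate 1 and 45.8% in replicate 2. The next, 42.2 kb from 14215866 to 14258057 with 34 series peaks, lay in the dense window of the right arm, and its coverage was 65.95% and 38.95%. The one after it, 41.9 kb from 213448 to 255392 with 28 series peaks, lay in the dense left end, and was covered to 57.9% in replicate 1 and 18.3% in replicate 2. The other 2 of the 5 longest were 39.4 kb from 10837104 to 10876479, in the centre, and 39.2 kb from 2881951 to 2921101, in the sparse part of the left arm. The last had 43.2% in replicate 1 and 17.1% in replicate 2, so the sparse arm also held a long cluster.

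Long stretches without peaks were concentrated in the left arm. Stretches of at least 100 kb that were free in all 3 lists numbered 20 and added up to 2.89 Mb. Of these, 12 lay in the left arm, 5 in the centre and 3 in the right arm, although the centre is as long as both arms together. Of the 60 stretches of at least 50 kb, which include these 20, the centre held 30, the right arm 10 and the left arm 20. Of the 38 windows of 100 kb in the left arm, 7 held no peak of either replicate, compared with 1 of 38 in the right arm and 2 of 76 in the centre.

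The longest stretch free in all 3 lists was 243 kb from 877153 to 1120507, in the left arm. It was followed by 198 kb from 2253721 to 2451625 in the left arm, 183 kb from 14564219 to 14747072 in the right arm, 174 kb from 3167021 to 3340631 in the left arm and 161 kb from 4062027 to 4222966 at the left edge of the centre. The right-arm stretch lay just beyond the dense window from 14.0 to 14.5 Mb. Outside chromosome II, the longest gap of an autosome in a replicate list was between 149 and 753 kb in replicate 1 and between 198 and 881 kb in replicate 2, and II lay inside both ranges with 244 and 417 kb.

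The longest gaps of replicate 2 exceeded those of replicate 1, although its median gap was shorter, and the other lists had calls inside them. The longest gap of replicate 2 was 417 kb from 703500 to 1120507. In it replicate 1 had 7 peaks and 16119 bases and the series list 18 peaks and 9688 bases. The next was 415 kb from 1501006 to 1916411, with 4 replicate 1 peaks over 3805 bases and 5 series peaks over 2016 bases. The one after was 263 kb from 3079586 to 3342148, with 4 replicate 1 peaks and 15 series peaks. In replicate 1 the 3 longest gaps were 244 kb from 877153 to 1120988, 229 kb from 2245972 to 2474935 and 220 kb from 3120657 to 3340631. Replicate 2 had no peak in the last pair and reached 481 bases into the first, and the series list had 0, 10 and 5 peaks in the 3 gaps. The longest gaps of the series list were 246 kb from 875005 to 1121181, 198 kb from 2253721 to 2451625 and 183 kb from 14563935 to 14747072, and in these the replicates had no bases or, at the edges of the first and the last, 257 to 2341 bases.

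**Figure D4:**
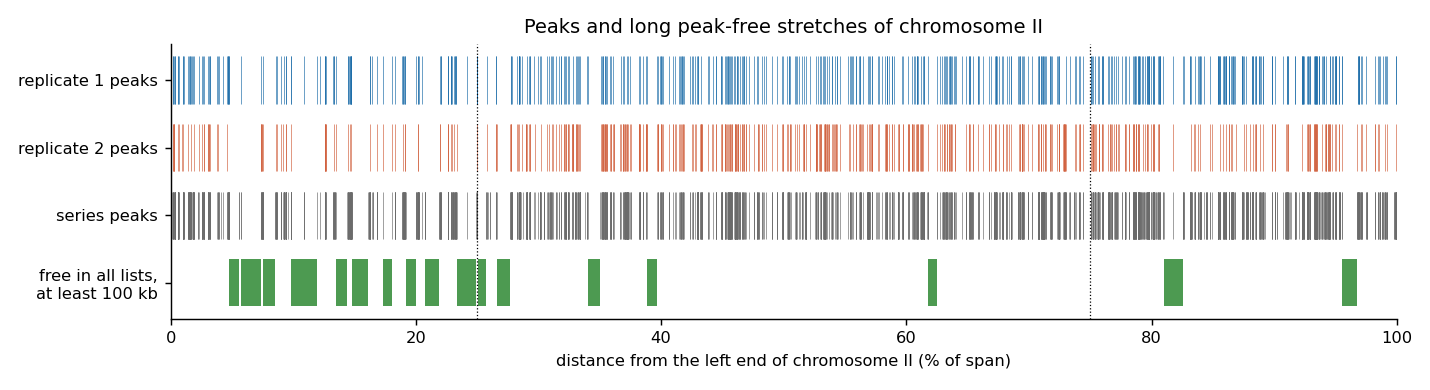
Midpoints of all peaks of the replicate 1, replicate 2 and series lists on chromosome II, each drawn as a thin vertical line, and below them the 20 stretches of at least 100 kb free of peaks in all 3 lists, drawn to scale; the x axis is the distance from the left end in percent of the span, and dotted lines mark the arms. Of the 20 free stretches 12 lie in the left arm.

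The replicate lists were compared peak by peak to see which places on II were called in both. Of 563 replicate 1 peaks, 359 shared 1 base or more with a replicate 2 peak, or 63.8% (Wilson 95% bounds 59.7 and 67.6%), where 59.7% of the peaks on all 6 chromosomes did. Of 562 replicate 2 peaks, 526 did so with a replicate 1 peak, or 93.6% (91.3 to 95.3%), where 90.0% did on all 6 chromosomes. The intervals cover counting error only and treat neighbouring peaks as independent. The other autosomes had shares of 59.0 to 65.3% in replicate 1 and 85.3 to 93.2% in replicate 2. The shared bases were 58.05% of the bases of replicate 1 and 93.8% of those of replicate 2 on II, and 55.9% of the bases covered in either list, against 49.1 to 56.1% on the other autosomes. Overlaps expected by chance were not computed.

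Joined across lists, the replicate peaks made 586 sites on II. Of these 346 held peaks of both replicates, 204 of replicate 1 only and 36 of replicate 2 only. Sites were joined on II only, so whether these counts are particular to II is not known. The median width of sites with both replicates was 5841.5 bases, and that of those of replicate 1 only and replicate 2 only 1600.5 and 1435.5 bases. They numbered 27.7 per Mb in the centre, 23.1 in the right arm and 12.3 in the left arm. Sites of replicate 1 only went another way, with 8.004 per Mb in the centre, 23.4 in the right arm and 14.2 in the left arm. As counts these sites were 61 in the centre, 89 in the right arm and 54 in the left arm.

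The sites differed in how the replicates divided them. Of the 359 shared replicate 1 peaks, 239 met 1 replicate 2 peak, 87 met 2 and 33 met 3 or more. Those that met at least 2 were 29.5% of the replicate 1 peaks in the centre, 14.1% in the right arm and 12.6% in the left arm. In the opposite direction only 13 replicate 2 peaks met 2 replicate 1 peaks, and 0 met more. In 222 cases a single peak of each replicate met only the other, and in 157 of these, or 70.7%, the replicate 2 peak lay inside the replicate 1 peak. The replicate 1 peak was then wider in 208 of 222 pairs, with median widths of 4455.5 bases in replicate 1 and 2736 in replicate 2. It reached a median of 383.5 bases farther to the left and 447.5 bases farther to the right. The midpoints were a median of 357 bases apart, and within 500 bases in 139 of the 222 pairs, or 62.6%. Where 1 peak lies inside the other, this distance is limited by the difference of their widths. It therefore does not show whether the peaks of a pair were centred on each other. Across the 222 pairs the widths had a Spearman rho of 0.790 and the scores one of 0.768, as descriptions.

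Peaks found in a single replicate were narrow and low in score. The 204 replicate 1 peaks without a replicate 2 peak had a median score of 126 against 2435 for the shared ones, and held 14.7% of the covered bases of replicate 1. Of these 204 peaks 203 touched a series peak, which is no independent support because the series list is named for the same ChIP. The 36 replicate 2 peaks without a replicate 1 peak had a median score of 109 against 411, and 28 of them touched a series peak. They lay in the centre in 21 cases, in the right arm in 12 and in the left arm in 3.

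The share of replicate 1 peaks met by replicate 2 climbed steeply with the score. From the lowest to the highest of 4 score groups on II it was 14.2% (9.37 to 20.9%), 44.7% (36.7 to 52.9%), 97.9% (93.9 to 99.3%) and 98.6% (94.98 to 99.6%). Median width climbed as well, from 1350 bases in the lowest group to 7390 in the highest, and its part in the shares was not tested. In replicate 2 the shares were high throughout, with 86.5% (79.9 to 91.2%) in the lowest group, 97.9% in the second highest and 96.5% in the highest. The scores are the authors' deposited values and were used only to rank peaks within a list.

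The share of replicate 1 peaks met by replicate 2 differed between regions of II, and so did their scores. In all, 77.8% (72.5 to 82.3%) of the centre peaks were met, 51.9% (44.7 to 58.98%) of those in the right arm and 47.6% (38.2 to 57.1%) of those in the left arm. The higher-scoring 50% of the list on II took in 176 of the 275 centre peaks, 68 of the 185 in the right arm and 38 of the 103 in the left arm, so the centre had more of the strong calls. Among these the shares were close, with 172 of 176 met in the centre, 68 of 68 in the right arm and 37 of 38 in the left arm. Among the lower-scoring 50% they were 42.4% (33.2 to 52.3%) in the centre, 23.9% (17.1 to 32.4%) in the right arm and 18.5% (10.9 to 29.6%) in the left arm. Replicate 2 peaks lie more densely in the centre, and the part of that density in these shares was not tested. In replicate 2 the shares were 94.2% in the centre, 90.9% in the right arm and 95.6% in the left arm, with overlapping intervals.

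**Figure D5:**
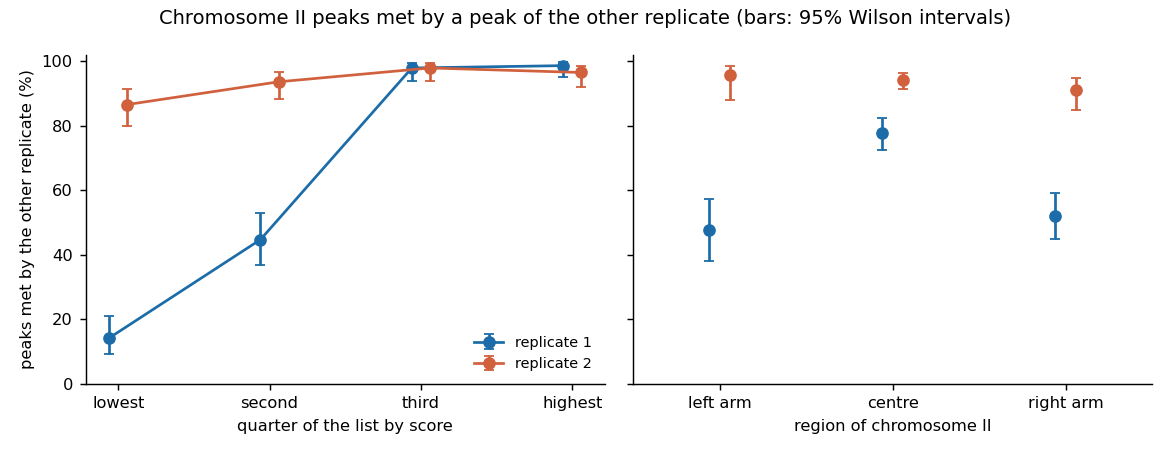
Share of chromosome II peaks of each replicate met by a peak of the other, in percent with 95% Wilson intervals, by score group within the list (left) and by region (right). Replicate 1 runs from 14.2% in its lowest score group to 98.6% in its highest, while replicate 2 stays above 86% throughout.

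The series list on II, named for the same ChIP, touched 562 of 563 replicate 1 peaks and 553 of 562 replicate 2 peaks. A replicate 1 peak held a median of 2 series peaks and up to 18, and a replicate 2 peak a median of 1 and up to 6. Series peaks filled a median of 73.1% of a replicate 1 peak and 90.6% of a replicate 2 peak. Of the 2020 series peaks, 708 met both replicates, or 35.05% (Wilson 95% bounds 33.0 and 37.2%), where 31.5% of those on all 6 chromosomes did. A further 876, or 43.4%, met replicate 1 only, 42 or 2.08% met replicate 2 only, and 394 or 19.5% met neither. For these other classes the shares over all 6 chromosomes were not computed, so whether they are particular to II is not known. The 708 peaks over both replicates held 72.8% of the bases of the list on II and had a median width of 1622 bases, and the 394 over neither held 4.77% and had a median width of 231 bases.

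These classes were spread unevenly along the chromosome. Series peaks over both replicates were 44.0% of the series peaks in the centre, 27.8% in the right arm and 25.4% in the left arm. Those over neither were 11.6% in the centre, 28.9% in the right arm and 22.9% in the left arm. By number the series list was densest in the right arm, with 173 peaks per Mb, against 126 in the centre and 104 in the left arm, whereas its coverage was 15.02% in the right arm, 20.2% in the centre and 7.70% in the left arm. Its right-arm peaks had a median width of 367 bases and its centre peaks one of 601 bases.

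The 10 highest-scoring series peaks on II that met both replicates were single sites in all parts of the chromosome, 3 in the left arm, 4 in the centre and 3 in the right arm. The first had a series score of 129, from 2751287 to 2752777 in the sparse part of the left arm, with a replicate 1 score of 3100 and a replicate 2 score of 1693. The next scored 104.5, from 12459535 to 12461321 in the right arm, and the one after 101, from 153756 to 156092 in the dense left end. The first thus stood in a thinly covered window, from 2.5 to 3.0 Mb, with 4.80% ± 2.92 (SD, n = 2). The peak from 4042671 to 4044578, with a score of 95.8, lay at the left edge of the centre, in the window where coverage began to climb. The others began at 6585884, 13083894, 6383276, 10170912, 11980329 and 3482341, with scores of 94.5, 94.2, 90.9, 90.3, 89.6 and 88.8. Of the 10, 8 were 1491 to 2641 bases wide, and those at 6585884 and 10170912 were 7467 and 6162 bases wide.

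Their places in the replicate lists were uneven. In replicate 1 the overlapping peaks had the tied score of 3100 at 6 of the 10 sites. At the site from 6585884 to 6593350 the replicate 1 score was only 126, and the replicate 1 call was the 25836-base region described above. Replicate 2 had 3 peaks with a best score of 3100 in the same place. The replicate 2 scores at the 10 sites ran from 818 to 3100.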

How the data were processed

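ChIP and input DNA came from ground worms fixed with 1% formaldehyde for 10 min, and 5 µg of antibody was used per precipitation, per the labels' protocols. Libraries were amplified by PCR, and a removal of PCR copies is not given in those protocols. Per the submitters' processing notes, BWA (no version given) and the build ce10 were used for alignment. Peaks were called with MACS (replicate lists) and MACS v2 (series list) in WormBase WS220, per the file headers and lines; cutoff, control library and any pooling for the series list: not given in the sources used here. Peak scores are values deposited by the authors, on a scale that no header names.

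Samples were grouped by title. Peaks of II were counted and measured from their 1-based starts and ends; peaks of a list did not overlap. Regions were assigned by peak midpoints, and coverage by bases. Wilson intervals are at 95%. The members, the regions and the rule for named items were chosen with earlier results of these data known. Named items were the 10 series peaks over both replicates with the highest scores, the 3 widest peaks of each replicate, the 3 longest gaps of each list, the 5 longest common free stretches, the 3 highest and lowest windows and the 5 longest chains. Tools were Python 3.11.15, scipy 1.17.1, numpy 2.4.6, matplotlib 3.10.9 and pandas 2.3.3, tested on simulated lists. No genome or gene annotation in WS220 was used here, so no gene or sequence is named at a peak. Alternatives were other rules of overlap, the better-scoring 50% of each list on II, joined peaks, other boundaries, peaks per Mb, the series list and leaving out each replicate.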

Additional observations from a re-analysis of the deposited data

How the results depend on the processing

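The boundaries at 4 and 12 Mb, the omission of the left 500 kb and the joined peaks per Mb were added after seeing the data, and all other settings were planned. The centre-to-arm and right-to-left ratios, 1.90 and 2.09 as geometric means of both replicates, stayed above 1 in all 9 alternatives each. Among these, leaving out a replicate only returns the value of the other and is no separate check. The centre-to-arm ratio was 1.31 as peaks per Mb (0.955 in replicate 1 alone), 1.36 as joined peaks per Mb and 2.43 with boundaries at 4 and 12 Mb, and the right-to-left ratio was 2.70 without the left 500 kb. Without replicate 1 or replicate 2 the ratios ranged from 1.67 to 2.16 and from 1.80 to 2.42, coverage from 11.5 to 18.6%, the longest peak-free stretch from 244 to 417 kb, peak density from 36.87 to 36.93 per Mb, median width from 2381.5 to 3461 bases and median spacing from 7109 to 8508.5 bases.

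Measures of single peaks depended on how regions were cut. Joining peaks less than 1000 bases apart gave 28.3 peaks per Mb, a median width of 4026.5 bases and a median spacing of 15287.5 bases, against 36.9, 2921 and 7809 as called, averaged over the replicates. The series list gave 132.5, 465 and 443. The better-scoring 50% gave 18.5 by construction, 4959.75 and 28157 bases, a longest free stretch of 608 kb, and 79.8% and 86.8% of replicate 1 and replicate 2 peaks shared. Requiring 50% of both peaks to overlap left 40.5% and 40.6% shared and 9.26% of series peaks over both replicates, and the midpoint rule gave 54.0% of replicate 1 peaks and 31.04% of series peaks. The correlation of the replicates was 0.916 in 200-kb windows, against 0.905 in 100-kb windows. The other alternative values moved by less than the spread of the replicates or stayed in their interval. No paired analysis was possible because only the ChIP peak lists were analysed here. Read depth is unknown, so a missing peak cannot be told from a place too thinly sequenced to call.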
